A study of Homo sapiens with 8 samples.

Results

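The genes described here are 10 chaperones, folding factors and regulators of the endoplasmic reticulum (ER) whose transcription depends on ATF6 and XBP1: HSPA5, HSP90B1, CALR, PDIA4, SDF2L1, DNAJB9, DNAJC3, HERPUD1, SEL1L and XBP1. They were found by symbol, and all 10 were present among the 23393 genes of the Dox experiment and the 42125 genes of the TFAP2C experiment. All passed the filter on low counts in both. The comparison asks whether the stress response of cells given Dox includes the genes of the ER.

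When unfolded proteins collect in the ER, 3 sensors in its membrane start the unfolded protein response (UPR). ATF6 moves to the Golgi, where the proteases encoded by MBTPS1 and MBTPS2 release its transcription factor domain. IRE1, encoded by ERN1, splices XBP1 mRNA so that it encodes an active factor, and both factors raise chaperones and the machinery of ER-associated degradation. PERK, encoded by EIF2AK3, phosphorylates eIF2alpha, which slows translation and favours ATF4 and its targets. Other kinases outside the ER phosphorylate the same protein when amino acids are short, when heme is low or when double-stranded RNA is present, so ATF4 targets can rise without the ER.

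All 8 libraries are mRNA of HCT116, a human colorectal cancer cell line. The study's culture methods describe HCT116 cells stably carrying a Tet-On shRNA against SAE2, while the titles of the siRNA libraries name only HCT116. SAE2, also called UBA2, is a subunit of the enzyme that activates SUMO. The Dox group received doxycycline at 1 μg/mL for 5 days and its control, here no Dox, is labelled as given DMSO for 5 days. The other pair of groups received a control siRNA or an siRNA against the transcription factor TFAP2C for 48 hrs. Each of the 4 groups had 2 libraries, and no source used here says that they came from separate cultures. The p-values set a change against the spread between these libraries, estimated in part across genes. They may not cover the spread between cultures.

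UBA2 mRNA was at 162 and 146 CPM (a gene's share of the counts of its library, scaled between libraries by TMM) without Dox and at 147 and 153 with Dox. These groups overlapped, so the libraries labelled as SAE2 knockdown were not lower in UBA2 mRNA (log2 fold change -0.036 ± 0.056 SE, adjusted p = 0.766 by edgeR's quasi-likelihood test). Cells of both groups of the Dox experiment carried the shRNA, so effects of Dox and of the shRNA cannot be told apart. TFAP2C was at 18.9 and 20.5 CPM with control siRNA and at 3.46 and 4.30 with its siRNA, and fell by 2.34 on the log2 scale (SE 0.13, adjusted p = 7.67e-06). Library totals lay between 18213739 and 24465109 counts, and the 10 genes together held from 0.318% to 0.395% of them. Their counts per library ran from 278 for DNAJB9 to 26219 for HSP90B1. The 2 TFAP2C siRNA libraries stood further apart than other replicates, with a chi-square per degree of freedom of 8.97 against 2.55 to 2.75 in the other 3 groups. Of 8 epithelial markers, 6 had at least 10 counts in every library, while VIL1 and CDX1 had at most 3. Of 8 blood, endothelial and fibroblast markers, only COL1A1 reached 10 counts in every library, and COL1A2 and DCN were at 0.

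The promoters of these genes are known for short elements that UPR factors bind. The RefSeq windows of 250 bases before to 50 bases after the start were searched on both strands for 4 motifs. The ER stress response element (ERSE) was searched as CCAAT and CCACG with 9 bases between them. It stood in windows of 4 of the 10 genes, HSPA5, HSP90B1, CALR and XBP1, and in 27 of 35116 windows of all genes (0.0769%). ERSE-II, searched as ATTGG and CCACG with 1 base between them, stood in HERPUD1 and SDF2L1 and in 19 of all windows (0.0541%). ERSE and ERSE-II can share letters, but no site below was counted as both. TGACGTGG, the core of the element bound by XBP1, was in none of the 10 and in 256 of all windows (0.729%). TTGCATCA, an element of C/EBP and ATF dimers such as those with ATF4, stood in HERPUD1 and in 304 of all windows (0.866%). The sites are shown as matches to these letters, and the capitals mark each match with its spacer, in the strand of the gene.
HSPA5 ERSE: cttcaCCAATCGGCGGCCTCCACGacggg
HSP90B1 ERSE, distal: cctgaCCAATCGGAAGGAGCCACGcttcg
HSP90B1 ERSE, proximal: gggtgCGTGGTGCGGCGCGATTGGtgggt
CALR ERSE: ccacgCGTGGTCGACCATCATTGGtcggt
XBP1 ERSE: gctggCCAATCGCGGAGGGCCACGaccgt
HERPUD1 ERSE-II: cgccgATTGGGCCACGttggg
SDF2L1 ERSE-II: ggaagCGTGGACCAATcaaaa
HERPUD1 C/EBP-ATF: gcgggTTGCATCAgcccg

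On build GRCh38.p14 these stretches lie upstream of the RefSeq starts. That of HSPA5 is chr9:125241386-125241414 (minus strand), and those of HSP90B1 are chr12:103930211-103930239 and chr12:103930316-103930344 (plus strand). CALR's is chr19:12938379-12938407 (plus strand) and XBP1's is chr22:28800598-28800626 (minus strand). The ERSE-II stretches are chr16:56932020-56932040 in HERPUD1 and chr22:21642109-21642129 in SDF2L1, and the C/EBP-ATF stretch of HERPUD1 is chr16:56931961-56931978 (all plus strand). The sites of CALR and SDF2L1 and the proximal site of HSP90B1 read in the reverse direction. No motif was matched for DNAJB9, DNAJC3, PDIA4 or SEL1L, which says only that these letters are not in these windows. Of 16 PERK and ATF4 branch genes with a window, 0 held ERSE or ERSE-II, and CHAC1 and CEBPG held TTGCATCA. A match is a description of the sequence, and binding was not measured.

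With Dox, 3 of the 10 genes rose (XBP1, HERPUD1 and HSPA5) and 2 fell (CALR and SDF2L1), while 5 did not pass the threshold of an adjusted p under 0.05. Of all 13381 genes tested, 5.52% rose and 4.47% fell. The changes were small. Fitted log2 fold changes ran from -0.24 to 0.52, and none of the 10 reached a size of 1. Their median was 0.044, beside -0.00042 over all genes tested. The libraries of the groups did not overlap for 9 of the 10 genes, with 5 above and 4 below their controls, against 51.3% of all genes tested. In these bulk libraries, fewer cells expressing a gene and less RNA per cell cannot be told apart.

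**Figure D1:**
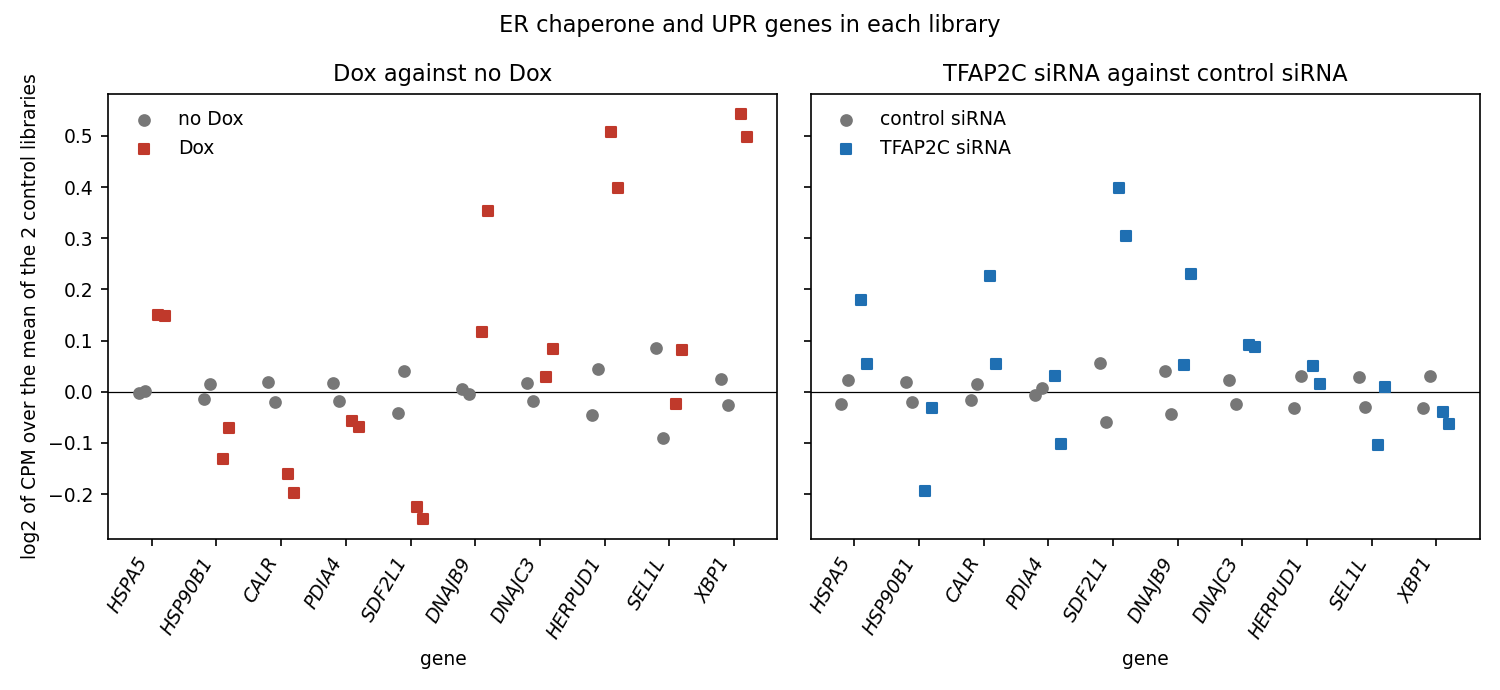
Level of each of the 10 genes in each of the 8 libraries, as the log2 of its CPM over the mean of the 2 control libraries of its experiment. Circles are control libraries and squares treated libraries. XBP1 and HERPUD1 stand highest with Dox, CALR and SDF2L1 lie below their controls with Dox, and SDF2L1 lies above its controls with TFAP2C siRNA.

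XBP1, the transcription factor of the IRE1 branch (hg19 chr22:29190548-29196560, minus strand), had the largest rise among the 10. It was at 78.2 and 75.4 CPM without Dox and at 112 and 108 CPM with Dox. The groups did not overlap. The log2 fold change was 0.52 ± 0.058 (SE, 95% confidence interval 0.40 to 0.64, adjusted p = 5.19e-08 by edgeR), a fitted rise of 43.5%. The call held under every other setting tried. Counts per gene add the spliced and unspliced forms of XBP1, so IRE1 activity was not measured. Its promoter held ERSE, as did those of HSPA5, which rose, CALR, which fell, and HSP90B1, which did not pass.

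HERPUD1, a membrane protein that organises the degradation complex of the ER (hg19 chr16:56966002-56977793, plus strand), was at 47.9 and 51.0 CPM without Dox and at 70.3 and 65.1 CPM with Dox. Both Dox libraries lay above both controls. The log2 fold change was 0.45 ± 0.067 (SE, 95% confidence interval 0.32 to 0.59, adjusted p = 9.42e-06 by edgeR). It held under every setting tried. HERPUD1 was also the only one of the 10 whose promoter held both ERSE-II and TTGCATCA. ERSE-II also stood in SDF2L1, which fell with Dox. Whether a motif goes with the change was not tested.

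SEL1L, the partner of the ubiquitin ligase SYVN1 in the same degradation pathway, was at 116 and 102 CPM without Dox and at 107 and 115 CPM with Dox. The groups overlapped, and its log2 fold change of 0.031 ± 0.062 (SE, adjusted p = 0.817) changed sign with the library left out. HERPUD1 and SEL1L thus gave different results within the degradation pathway, although the difference between these genes was not tested.

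HSPA5, the chaperone BiP of the Hsp70 family (hg19 chr9:127997127-128003666, minus strand), was at 812 and 815 CPM without Dox and at 902 and 901 CPM with Dox. The libraries of a group differed by less than the gap between the groups. The log2 fold change was 0.15 ± 0.040 (SE, 95% confidence interval 0.066 to 0.23, adjusted p = 0.0147 by edgeR), a fitted rise of 10.8%. Without no Dox replicate 1 or replicate 2 the adjusted p was 0.0747 or 0.0701, and in a fit of all 8 libraries it was 0.126.

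None of the other abundant chaperones rose. CALR, the lectin chaperone calreticulin, which also binds calcium (hg19 chr19:13049414-13055304, plus strand), was at 982 and 956 CPM without Dox and at 866 and 845 CPM with Dox. Both Dox libraries lay below both controls, and the log2 fold change was -0.18 ± 0.041 (SE, adjusted p = 0.00289). The adjusted p was 0.0939 in the fit of all 8 libraries, and 0.0408 or less with any library left out.

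HSP90B1, the ER member of the Hsp90 family, was at 1230 and 1256 CPM without Dox and at 1135 and 1184 CPM with Dox. These groups did not overlap, but the log2 fold change of -0.10 ± 0.040 (SE) had an adjusted p of 0.116. It passed with scaling by library size only (adjusted p = 0.0320) and without Dox replicate 2 (adjusted p = 0.0460). HSP90B1 shares sequence with its pseudogene HSP90B2P, which took from 12.6% to 13.2% of their joint counts, so its value is uncertain. With both summed, the log2 fold change was -0.097 (adjusted p = 0.129).

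PDIA4, a protein disulfide isomerase, was at 496 and 484 CPM without Dox and at 471 and 467 CPM with Dox. The groups did not overlap, and the log2 fold change was -0.063 ± 0.043 (SE, adjusted p = 0.424).

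SDF2L1, which works with HSPA5 and the DnaJ protein DNAJB11 (hg19 chr22:21996542-21998588, plus strand), was at 38.9 and 41.2 CPM without Dox and at 34.3 and 33.7 CPM with Dox. It fell by 0.24 on the log2 scale (SE 0.074, adjusted p = 0.0354 by edgeR). The call held under other scalings and filters. It was lost with any of the 4 libraries left out (adjusted p from 0.0515 to 0.285), in DESeq2's Wald test (0.213), under the replicate block (0.0509) and in the fit of all 8 libraries (0.104).

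The DnaJ proteins of the ER recruit BiP to its clients. DNAJB9 was at 14.9 and 14.8 CPM without Dox and at 16.0 and 18.9 CPM with Dox, a log2 fold change of 0.24 ± 0.10 (SE, adjusted p = 0.152). It was 0.35 without Dox replicate 1 (adjusted p = 0.0528) and 0.12 without Dox replicate 2 (adjusted p = 0.663). DNAJC3, which also inhibits eIF2alpha kinases, was at 113 and 111 CPM without Dox and at 114 and 119 CPM with Dox, a log2 fold change of 0.057 ± 0.056 (SE, adjusted p = 0.606). Both genes lay above their controls in both Dox libraries without passing the threshold.

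The summed level of the 10 genes was 3929 and 3906 CPM without Dox and 3829 and 3857 CPM with Dox. HSPA5, HSP90B1, CALR and PDIA4 made up most of it, at 3520 and 3511 CPM without Dox and 3375 and 3397 CPM with Dox. XBP1 mRNA stood at 0.0962 and 0.0925 of the CPM of HSPA5 without Dox and at 0.124 and 0.120 with Dox. The summed level was below the controls in both Dox libraries, while XBP1, a regulator of these genes, was above them.

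**Figure D2:**
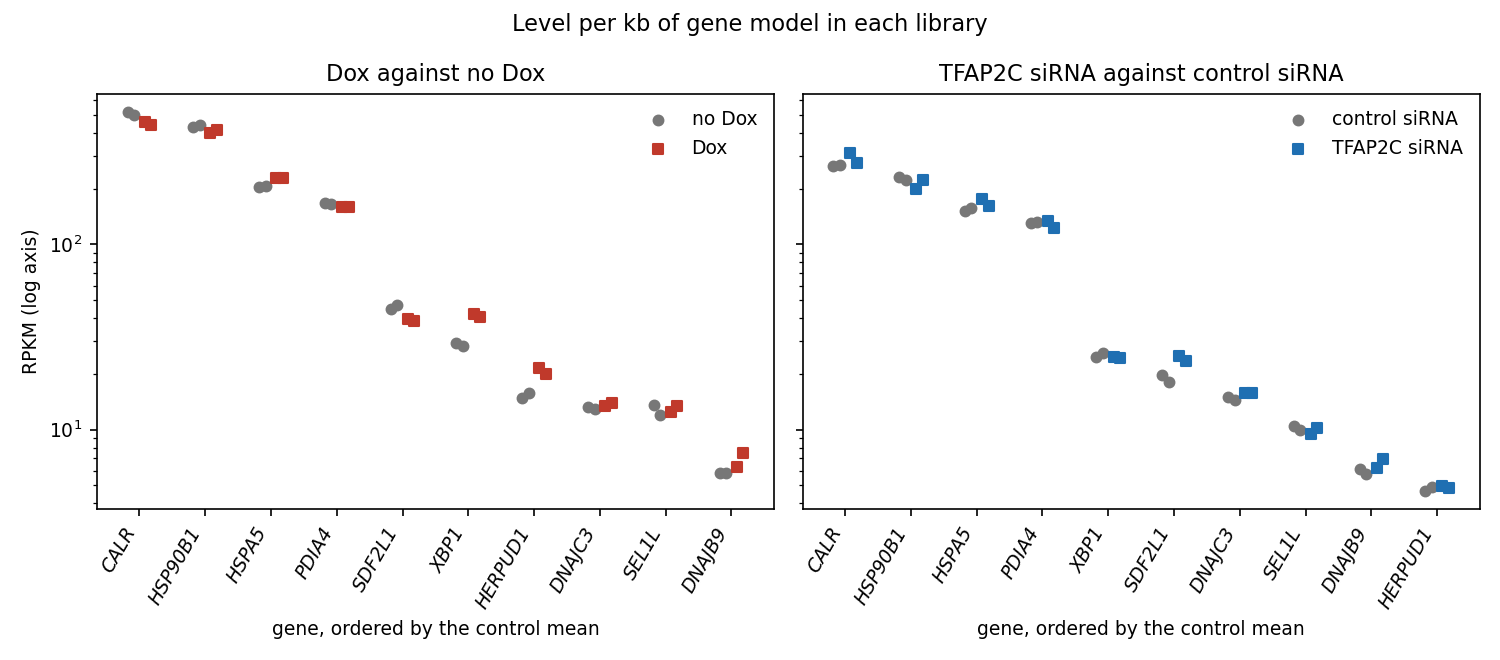
Level of the 10 genes in each library as RPKM on a log axis, ordered by the mean of the controls, with circles for control and squares for treated libraries. CALR, HSP90B1, HSPA5 and PDIA4 stand well above the other 6 genes in both experiments.

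Levels of different genes were compared as RPKM, the CPM per kb of gene model. Without Dox, CALR was highest at 509 ± 9.73 RPKM (SD, n = 2), followed by HSP90B1 at 437 ± 6.40, HSPA5 at 205 ± 0.437 and PDIA4 at 166 ± 2.81. SDF2L1 followed at 46.0 ± 1.84, XBP1 at 28.8 ± 0.736 and HERPUD1 at 15.2 ± 0.668. DNAJC3 at 13.1 ± 0.221 and SEL1L at 12.7 ± 1.10 overlapped, and DNAJB9 was lowest at 5.84 ± 0.0256. With Dox XBP1, at 41.3 ± 0.927 RPKM, was above SDF2L1, at 39.1 ± 0.475, so these neighbours changed places in the order. In the control siRNA libraries the first 4 genes had the same order, from 266 RPKM for CALR to 131 RPKM for PDIA4. HERPUD1 was lowest there, at 4.80 RPKM, in a gene model of 12.722 kb against 3.246 kb in the Dox experiment. The tables use different gene models, so levels per kb were not compared between them.

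With TFAP2C siRNA, none of the 10 genes passed the threshold in edgeR or in DESeq2, and 1 had an unadjusted p under 0.05 (SDF2L1). Of all 14991 genes tested, 0.26% rose and 0.48% fell, and 1889 had an unadjusted p under 0.05. The log2 fold changes ran from -0.11 to 0.35 with a median of 0.061, beside -0.0038 over all genes. The libraries of the groups did not overlap for 7 of the 10, against 44.7% of all genes.

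SDF2L1 was at 20.8 and 19.2 CPM with control siRNA and at 26.4 and 24.7 CPM with TFAP2C siRNA. Both TFAP2C siRNA libraries lay above both controls, with a log2 fold change of 0.35 ± 0.095 (SE, 95% confidence interval 0.14 to 0.56, adjusted p = 0.155 by edgeR). XBP1 was at 74.9 and 78.2 CPM with control siRNA and at 74.4 and 73.3 CPM with TFAP2C siRNA, and HERPUD1 was at 59.7 and 62.4 CPM and at 63.2 and 61.7 CPM. Neither of these regulators of the UPR and of degradation passed the threshold (adjusted p = 0.805 for XBP1 and 0.886 for HERPUD1).

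HSPA5 was at 595 and 615 CPM with control siRNA and at 685 and 628 CPM with TFAP2C siRNA. CALR was at 714 and 729 CPM with control siRNA and at 844 and 749 CPM with TFAP2C siRNA, and HSP90B1 was at 1076 and 1048 CPM and at 928 and 1039 CPM. In these abundant chaperones TFAP2C siRNA replicate 1 lay further from the controls than replicate 2. Leaving out replicate 2 left 1 TFAP2C siRNA library. The log2 fold changes were then 0.18 for HSPA5, -0.19 for HSP90B1, 0.40 for SDF2L1 and 0.23 for CALR. The 95% confidence interval in the fit of all 4 libraries was -0.033 to 0.27 for HSPA5 and -0.018 to 0.30 for CALR.

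PDIA4 was at 430 and 434 CPM with control siRNA and at 441 and 402 CPM with TFAP2C siRNA. SEL1L was at 99.4 and 95.4 CPM and at 90.6 and 98.0 CPM. The groups overlapped for both genes. DNAJB9 was at 15.6 and 14.7 CPM with control siRNA and at 15.7 and 17.7 CPM with TFAP2C siRNA, and DNAJC3 was at 83.7 and 81.1 CPM and at 87.8 and 87.5 CPM. Both DnaJ genes lay above their controls, with adjusted p of 0.614 and 0.633.

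Whether the change with Dox differed from that with TFAP2C siRNA was tested over 13179 shared genes, with the 8 libraries modelled jointly. The experiments also differed in duration (5 days of Dox, 48 hrs of siRNA), in gene models and in the levels of their controls. The marker KRT19, for example, averaged 147 CPM without Dox and 1187 CPM with control siRNA. A difference therefore cannot be assigned to the treatments alone. The difference passed for 3 of the 10 genes, against 2.37% of the genes tested. XBP1 differed by 0.58 ± 0.086 on the log2 scale (SE, Dox minus TFAP2C, adjusted p = 0.00150), HERPUD1 by 0.43 ± 0.097 (adjusted p = 0.0292) and SDF2L1 by -0.57 ± 0.11 (adjusted p = 0.0115). The XBP1 difference held with each library left out. That of HERPUD1 was lost without any of the no Dox, Dox or control siRNA libraries, with an adjusted p from 0.0536 to 0.201, and under the replicate block (0.123). That of SDF2L1 was lost without no Dox replicate 2, Dox replicate 1 or 2, or control siRNA replicate 2, with an adjusted p from 0.0614 to 0.0885. CALR differed by -0.31 ± 0.080 (adjusted p = 0.0600).

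HSPA5 differed by 0.042, with a 95% confidence interval of -0.12 to 0.20, and HSP90B1 by 0.022, with one of -0.15 to 0.20. For these abundant chaperones a difference between the treatments was not detectable at this number of libraries.

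**Figure D3:**
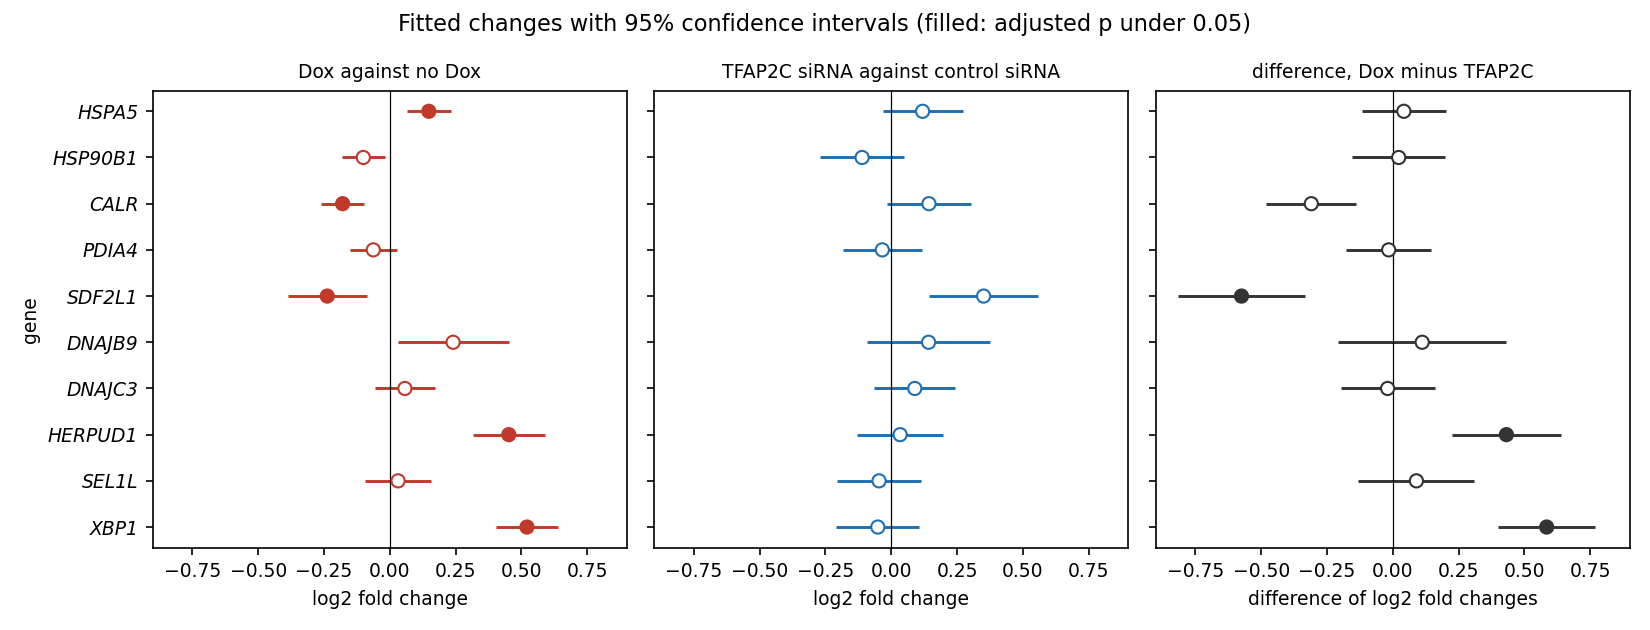
Fitted log2 fold change of the 10 genes with its 95% confidence interval for Dox, for TFAP2C siRNA and for the difference between them (Dox minus TFAP2C). Filled points had an adjusted p under 0.05: 5 genes with Dox, 0 with TFAP2C siRNA and 3 for the difference.

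The sensors themselves were compared. With Dox, ATF6 rose from 95.4 and 91.4 CPM to 119 and 120 CPM, a log2 fold change of 0.36 ± 0.057 (SE, adjusted p = 3.36e-05), and held under every setting tried. MBTPS1, the first of the proteases that cut ATF6, rose from 226 and 223 CPM to 266 and 251 CPM (log2 fold change 0.20, adjusted p = 0.00508), but not without no Dox replicate 2 (adjusted p = 0.0554), without Dox replicate 1 (0.0593) or in the fit of all 8 libraries (0.0552). ERN1 was at 10.7 and 10.0 CPM without Dox and at 12.2 and 11.5 CPM with Dox (adjusted p = 0.335), and EIF2AK3 at 23.9 and 24.5 CPM and at 22.3 and 24.0 CPM (adjusted p = 0.714). Of these 6 genes 2 rose and 0 fell, and the median log2 fold change was 0.17. Levels of mRNA do not measure the cleavage of ATF6 or the phosphorylation of PERK.

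Most other ER genes did not pass. Among 18 other chaperones and folding enzymes, DNAJC10, a disulfide reductase, rose (log2 fold change 0.16, adjusted p = 0.0382) and MANF, a secreted ER stress protein, fell (log2 fold change -0.21, adjusted p = 0.0163). Neither call held without no Dox replicate 1 or 2, in DESeq2's Wald test (adjusted p = 0.0939 and 0.0597) or in the fit of all 8 libraries (0.520 and 0.0774). DNAJC10's was also lost without Dox replicate 2, with scaling by library size only (0.0818) and under the replicate block (0.0514), and MANF's without Dox replicate 1. Of 14 tested genes of ER-associated degradation and 21 of the translocon and secretory pathway, 0 passed in edgeR or DESeq2, with medians of 0.054 and 0.0099. An unadjusted p under 0.05 in edgeR was found for 2 and 3 of them, and for 3036 of all 13381 genes tested. Over these 4 lists, 59 of 60 genes were tested, 3 rose and 1 fell, and the median was 0.024. DERL3 was the gene not tested.

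The PERK and ATF4 branch moved by more. This list was written with its changes in these data known and is no independent evidence of its direction or of the size of its changes. With Dox 15 of 16 tested genes rose and 0 fell, with a median log2 fold change of 0.91. ATF4 rose from 217 and 227 CPM to 368 and 359 CPM (log2 fold change 0.71, adjusted p = 6.82e-13). DDIT3, which encodes CHOP, rose from 12.4 and 12.9 CPM to 31.6 and 32.6 CPM (log2 fold change 1.34, adjusted p = 8.53e-13). CHAC1, which degrades glutathione, rose from 8.12 and 9.54 CPM to 39.4 and 33.2 CPM (log2 fold change 2.03, adjusted p = 1.32e-15), and TRIB3, a pseudokinase that restrains ATF4, by 1.35 (adjusted p = 5.46e-17). CHAC1, TRIB3 and DDIT3 were named for having the largest called changes of the list. That they exceeded XBP1, at 0.52, follows from this choice. ATF3, also in the list, rose by 0.49 on the log2 scale, less than XBP1. PPP1R15A, which returns eIF2alpha to its unphosphorylated form, was the tested gene that did not pass (log2 fold change 0.22, adjusted p = 0.0515).

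Chaperones of other compartments were read beside these. Of 8 cytosolic heat shock genes 7 fell with Dox and 0 rose in edgeR, with a median log2 fold change of -0.18, and DESeq2 called 4. HSPB1 fell by 0.45 (adjusted p = 1.56e-07) and HSPA1B by 0.42 (adjusted p = 5.33e-07) on the log2 scale. HSPA1A, at -0.75 (adjusted p = 0.00973), is nearly identical to HSPA1B, so the values of both are uncertain, and its call was lost without no Dox replicate 1 or Dox replicate 2. Of 8 mitochondrial genes LONP1, a protease, rose by 0.26 (adjusted p = 0.000430) and HSPA9, the mitochondrial Hsp70, by 0.23 (adjusted p = 0.000141). HSPE1, the cofactor of the mitochondrial chaperonin, fell by 0.23 on the log2 scale (adjusted p = 0.0300), and was at -0.10 (adjusted p = 0.592) without no Dox replicate 2.

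With TFAP2C siRNA, 0 of 92 tested genes of these 7 lists passed in edgeR or in DESeq2, 8 had an unadjusted p under 0.05, and the medians lay between -0.018 and 0.089. ATF4 was at -0.0096 (adjusted p = 0.972), DDIT3 at -0.20 (0.555), ATF6 at 0.046 (0.836), ERN1 at -0.064 (0.788) and EIF2AK3 at -0.18 (0.488) on the log2 scale.

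**Figure D4:**
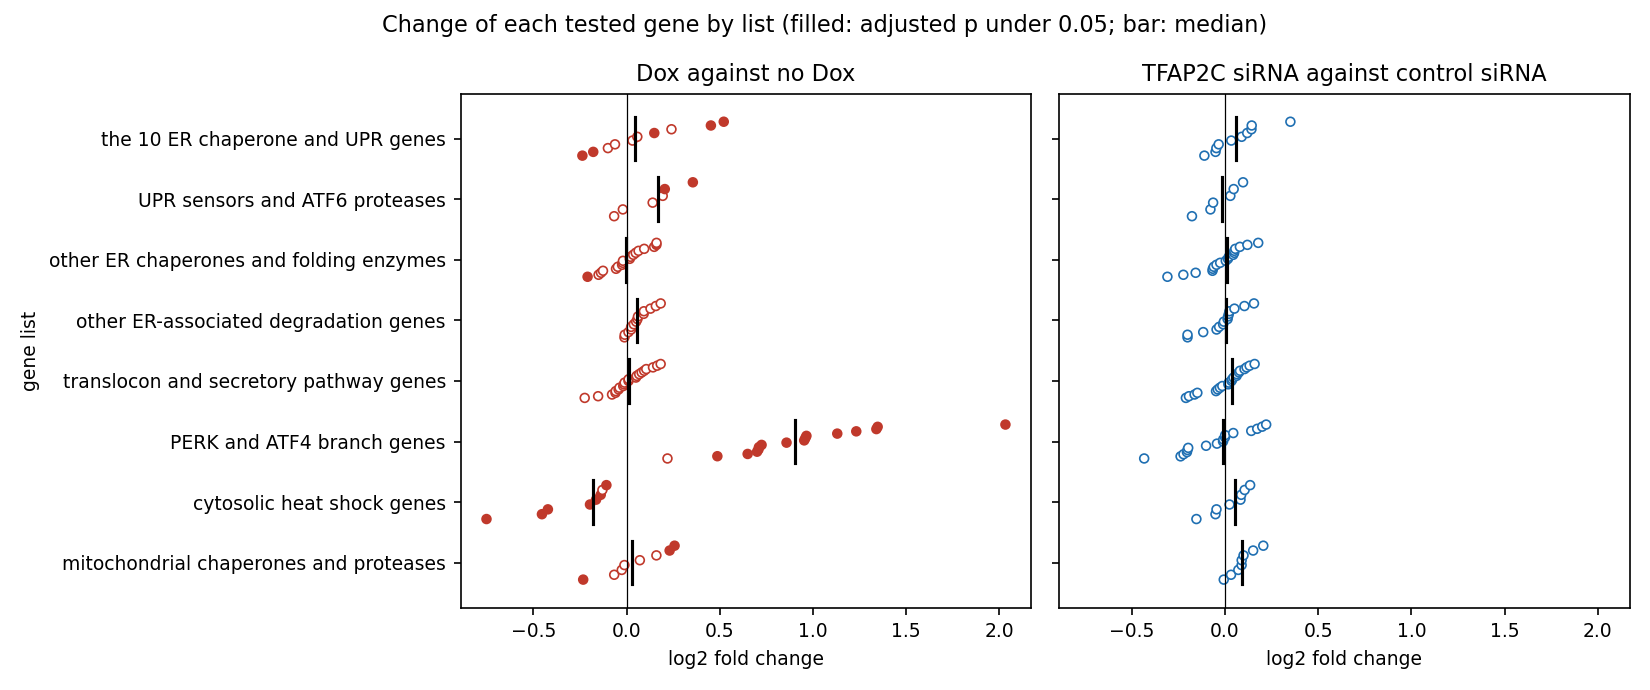
Log2 fold change of each tested gene by list, with Dox and with TFAP2C siRNA. Filled points had an adjusted p under 0.05 and bars mark the medians. With Dox the PERK and ATF4 branch lies to the right, with a median of 0.91. The 10 ER chaperone and UPR genes lie on both sides of 0, with a median of 0.044. The branch list was written with its changes in these data known, so its median is no independent result.

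Of the epithelial markers, 3 rose with Dox, KRT18 by 0.25, KRT8 by 0.18 and EPCAM by 0.15 on the log2 scale. The sum of the 8 markers ran from 2160 to 2196 CPM without Dox and from 2389 to 2472 CPM with Dox, and that of the 8 blood, endothelial and fibroblast markers from 16.4 to 23.2 CPM and from 15.1 to 17.1 CPM. With control siRNA these sums ran from 2845 to 2923 CPM and from 47.1 to 50.4 CPM, and with TFAP2C siRNA from 3129 to 3337 CPM and from 44.1 to 45.3 CPM. The part of these markers in the values of the ER genes was not tested.

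Likeness to HSPA5 was measured as the root mean square difference in log2 CPM, relative to the controls of each experiment, over the 8 libraries and 12157 genes. Among the nearest were RPS18 at 0.0112, RPS6 at 0.0142, NT5DC3 at 0.0149 and COLGALT1 at 0.0189. The nearest of the other ER genes here was DNAJC3, at rank 865 with 0.0637, and the farthest was SDF2L1, at rank 9396 with 0.230. Genes outside the set far outnumber those within it, so these ranks cannot say whether HSPA5 is unlike its set. They are a description of 8 libraries.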

How the data were processed

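The authors aligned single-end mRNA-seq reads with Tophat2 to hg19 and counted them per gene with HTSeq (0.9.1 per the submitters' processing notes), and deposited raw read counts per gene, without normalization, in a table for each experiment. The strand setting was not given in the sources used here, so overlapping and antisense genes cannot be separated. The TFAP2C table lists GRCh38 positions and Ensembl gene types, unlike the stated hg19. The tables were therefore fitted separately, except for the difference and the fit of all 8 libraries. Columns of other series numbered 0.

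In R 4.3.3, edgeR 4.0.16 was used with filterByExpr, TMM scaling and the quasi-likelihood test, two-sided, with Benjamini-Hochberg adjustment over all genes tested. Replicate variation, as edgeR's biological coefficient of variation, was 3.56% for Dox and 6.28% for TFAP2C siRNA. Depth was 18213739 to 24465109 counts per library. With 2 libraries per group an exact test of a single gene cannot reach 0.05. Standard errors were taken from the fold change and its F statistic.

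The 10 genes and the other lists were chosen with earlier results of these data known. Named besides the 10 are ATF4, DDIT3, ERN1, EIF2AK3, ATF6, TFAP2C and UBA2, up to 3 genes per list and comparison with the largest called change, and the 5 genes nearest to HSPA5, of which 1 is not reported here. PPP1R15A, ATF3, DERL3 and the markers were named after their values were seen. Alternatives were DESeq2 1.42.0 (size factors or Wald test), library size only, other filters, a replicate block, all 8 libraries in 1 fit and each library left out. The code was tested on simulated data. Promoter windows were matched by symbol, with 10 of 10 genes found, from RefSeq (GRCh38.p14).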

Additional observations from a re-analysis of the deposited data

How the results depend on the processing

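With Dox, 5 of the 10 ER genes passed, and 2 did (XBP1 and HERPUD1) in the fit of all 8 libraries, 3 to 5 with a library left out. The count was 3 without no Dox replicate 1 or replicate 2. The median of the 10 lay between -0.0075 and 0.099 with a library left out, and with TFAP2C siRNA between 0.036 and 0.057. With TFAP2C siRNA 0 passed, and 1 did in the fit of all 8 libraries (SDF2L1, adjusted p = 0.0456 by edgeR). For the difference 3 passed, and 1 to 4 with a library left out (1 without no Dox replicate 2, Dox replicate 1 or 2, or control siRNA replicate 2). CALR's difference passed with library size only (adjusted p = 0.0410), DESeq2's Wald test (0.0221), no filter (0.000666) and at least 10 counts in every library (0.0484). With a library left out it ran from -0.38 to -0.24 on the log2 scale. Such fits leave 1 library in a group, and their p-values rest on the spread in the other groups.

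In the 4 other ER lists with Dox, 3 rose and 1 fell. The fit of all 8 libraries gave 1 and 0 and DESeq2's Wald test 2 and 0, and 2 rose with library size only and under the replicate block. With a library left out 1 to 2 rose and 0 to 1 fell, and 15 to 16 PERK and ATF4 branch genes rose and 0 fell. With TFAP2C siRNA and a library left out, 0 to 3 ER genes rose and 0 to 8 fell, and 0 to 1 PERK and ATF4 branch genes rose and 0 to 3 fell. The higher counts came without a TFAP2C siRNA library: 2 and 2 ER genes and 1 and 1 branch genes without replicate 1, and 3 and 8 and 1 and 3 without replicate 2. The cause was not tested.

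Directions turned only with a library left out, in genes that did not pass. The log2 fold change of SEL1L ran from -0.055 to 0.12 with Dox and from -0.10 to 0.0087 with TFAP2C siRNA, and that of PDIA4 from -0.10 to 0.034 with TFAP2C siRNA. Differences ran from -0.078 to 0.12 for HSP90B1, -0.047 to 0.0012 for DNAJC3, -0.012 to 0.22 for DNAJB9, -0.071 to 0.030 for PDIA4 and -0.0097 to 0.084 for HSPA5.

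The replicate numbers were shared across groups, but no label says that a number marks a shared batch, and the deviations of same-numbered libraries correlated at -0.013 with Dox and -0.22 with TFAP2C siRNA. With the replicate block 4 of the 10 genes passed with Dox (SDF2L1 was lost, adjusted p = 0.0509), 0 with TFAP2C siRNA and 2 for the difference (HERPUD1 was lost, adjusted p = 0.123). The block moved all genes called from 1336 to 1308 and from 111 to 172. Crossed numbers, tried after seeing the data, gave 467 genes with TFAP2C siRNA, 1 of them among the 10.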
